A study of Mus musculus with 79 samples.

Results

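Livers of mice labelled as Per1,2 double knockout (KO) were set against wild-type (WT) livers, all taken in air at circadian time (CT) 4 to 8 h. The comparison holds 8 of the 79 libraries of the series, 4 of KO and 4 of WT mice, chosen by these labels alone, and each library is 1 mouse. All mice were C57BL/6, 3 months old, and were kept in constant darkness for 2 days before 4 h in a cage flushed with synthetic air of 21% oxygen. RNA was sequenced in the whole series to ask how a few hours of low oxygen act on tissues at different times of day; these 8 libraries belong to its controls. KO and WT livers in air at CT16-20 (4 mice each) and WT livers of a light-dark cycle in air (4 mice at zeitgeber time, ZT, 4 to 8 h and 4 at ZT16-20) were used beside them. KO and WT livers at 6% oxygen entered the fits, for the filter, the scaling and the spread, and were not compared. The labels give neither the deleted part of either gene, nor whether both groups were littermates. Counts per gene are given as CPM, the share of the library total times 1e+06 after TMM scaling; levels summed over marker or ribosomal protein genes are CPM without that scaling. A difference is the log2 fold change of KO over WT ± SE, and genes with an adjusted p under 0.05 were called, by edgeR's quasi-likelihood test over all genes tested.

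Per1 and Per2 encode repressors of the circadian clock. In each cycle the activators BMAL1 (gene Arntl) and CLOCK bind E-box sequences and drive Per, Cry, Nr1d1, Nr1d2, Dbp and other genes, and the PER and CRY proteins then shut the activators down. REV-ERB receptors (Nr1d1, Nr1d2) repress Arntl and other genes through elements that ROR receptors activate, and DBP, TEF and HLF compete with NFIL3 at D-boxes. In liver this loop, together with feeding and glucocorticoids, times the synthesis of glucose, fat, cholesterol and bile acids.

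The KO and the WT table were deposited apart, so genotype and table coincide and a shift between the tables cannot be told apart from genotype. Both list 10505 genes, of which 9011 passed the filter on low counts. Totals per library were 1591073 to 1910872 counts in KO and 1730975 to 2965022 counts in WT livers (exact two-sided permutation p = 0.11). The targeted genes did not separate the labels. Per1 stood at 35.6, 32.5, 20.0 and 27.3 CPM in KO livers, against 31.8, 16.1, 38.4 and 17.8 CPM in WT livers, and Per2 at 6.56, 4.88, 11.3 and 10.8 CPM in KO livers, against 5.30, 8.50, 9.95 and 8.89 CPM in WT livers. Counts outside a deleted part check nothing, so KO here means labelled KO. All 8 hepatocyte markers were listed in both tables, with a summed 69996 to 103948 CPM in KO and 57825 to 86888 CPM in WT livers, and the Y-linked genes Kdm5d and Eif2s3y were counted in every library. WT replicate a stood apart: its median correlation of log2 CPM with the other WT libraries, across genes, was 0.914, against 0.956 to 0.976 for the other 7 libraries with their own group. Its ribosomal RNA precursor Rn45s stood at 3938 CPM, against 440.0 to 542 CPM in the other WT livers. Its hepatocyte markers, without TMM scaling, departed from the other WT livers in both directions. Alb stood at 12565 CPM, against 38624 to 41316 CPM, Cyp2e1 at 1138, against 3879 to 4342 CPM, and Hnf4a at 231, against 528 to 572 CPM. Apoa1 stood higher, at 22678 CPM, against 12970 to 17635 CPM, as did Serpina1c, at 7239 CPM, against 5763 to 7111 CPM. Of 2 neutrophil markers listed in both tables, S100a8 and S100a9, the sum was 2.51 to 8.37 CPM in KO and 0 to 1.95 CPM in WT livers (exact two-sided permutation p = 0.029, the smallest that 4 against 4 allows; adjusted p = 0.13 over 14 summaries). Each of the 2 alone overlapped between the groups, with 0 to 10 counts in a library, and edgeR called neither at CT4-8. Of the other markers of this list, 4 were in the KO table alone and 3 in neither table. The 2 pancreas or gut markers listed in both tables, Cela1 and Fabp2, summed to 17.8 to 28.9 CPM in KO and 33.5 to 57.1 CPM in WT livers, with the same p. Only Cela1 separated the groups, at 13.6 to 25.8 CPM in KO and 30.3 to 48.4 CPM in WT livers without TMM scaling. Fabp2 overlapped, and 6 of the 9 markers of this list were in neither table. Muscle and adipocyte markers summed to 218 CPM in KO replicate b, and to 17.3 to 64.7 CPM in the other KO and 22.5 to 32.4 CPM in the WT livers. Of these sums Cidec alone made up 116 CPM in KO replicate b and 47.1 CPM in KO replicate d. The adipocyte markers Adipoq and Plin1 were in neither table. The muscle markers Acta1, Myh4, Ckm and Myl1 stood at 32.1, 33.2, 16.6 and 20.0 CPM in KO replicate b, also without TMM scaling. The part that these have in the results was not tested. In bulk tissue, fewer cells of a type and less RNA per cell cannot be told apart.

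Of 9011 genes, 406 (4.51%) differed between KO and WT livers, 204 higher (2.26%) and 202 lower (2.24%) in KO. Of the higher genes 105 were at least 2-fold apart, and of the lower genes 63. The 4 KO and 4 WT libraries did not overlap for 922 genes (10.2% of those tested), 497 with KO above (5.52%) and 425 with KO below (4.72%), and 346 of the 922 were called. The count rests on the spread pooled over the 31 constant-dark liver libraries, which include livers at 6% oxygen. A fit of the 8 libraries alone called 96 genes, 66 higher and 30 lower. The count of the full fit fell to 228 without KO replicate a and to 246 without KO replicate c, and it was 321 without WT replicate a. The lower genes alone were 132 without KO replicate b.

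Among called genes that averaged at least 10 CPM and did not overlap between the groups, the largest rises in KO livers were those of Ppp1r3g, Pdk4 and Igfbp1. Ppp1r3g, a glycogen-targeting subunit of protein phosphatase 1 (chr13:35958839-35970388, plus strand, mm10), stood at 129, 113, 127 and 71 CPM in KO livers, against 4.71, 4.25, 5.43 and 7.24 CPM in WT livers. Every KO liver was far above every WT liver (4.30 ± 0.51, adjusted p = 1.7e-05). Pdk4, the kinase that holds back pyruvate dehydrogenase in fasting (chr6:5483351-5496309, minus strand), stood at 60.7, 57.5, 38 and 51.4 CPM in KO livers, against 3.53, 3.82, 5.88 and 3.62 CPM in WT livers (3.61 ± 0.52, adjusted p = 0.00018). Igfbp1, a secreted binding protein of insulin-like growth factors that insulin represses (chr11:7197782-7202546, plus strand), stood at 1282, 629.8, 656 and 467 CPM in KO livers, against 68.3, 70.5, 95 and 121 CPM in WT livers (3.09 ± 0.39, adjusted p = 2.6e-05). KO replicate a was the highest for both Pdk4 and Igfbp1, and the groups were well apart for both. Tat, which starts tyrosine breakdown, was 2.09 ± 0.28 higher. Elovl6, an elongase of long-chain fatty acids, stood at 135, 87.8, 84.2 and 33.6 CPM in KO livers, against 8.83, 22.5, 28.5 and 20.1 CPM in WT livers (2.07 ± 0.46, adjusted p = 0.0095), with KO replicate d nearest to WT. Acsl4, which activates arachidonic acid, was 1.93 ± 0.28 higher and Cdc42ep5, a Cdc42 effector, 2.10 ± 0.36 higher. Abtb2, a BTB-domain protein, was 1.71 ± 0.26 higher. Rad51b, a gene of DNA repair, was 3.01 ± 0.56 higher, with 7.24 CPM at most in any WT liver. The matricellular factor gene Ctgf (2.09 ± 0.44) lost its call without KO replicate a (1.29, adjusted p = 0.059), which stood at 44.9 CPM. The fatty acid hydroxylase genes Cyp4a14 (2.24 ± 0.65) and Cyp4a10 (1.62 ± 0.47) passed narrowly; they lost their calls in 6 and 7 of the 8 fits that left out 1 library, and their counts are uncertain because the family's copies are alike.

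**Figure D1:**
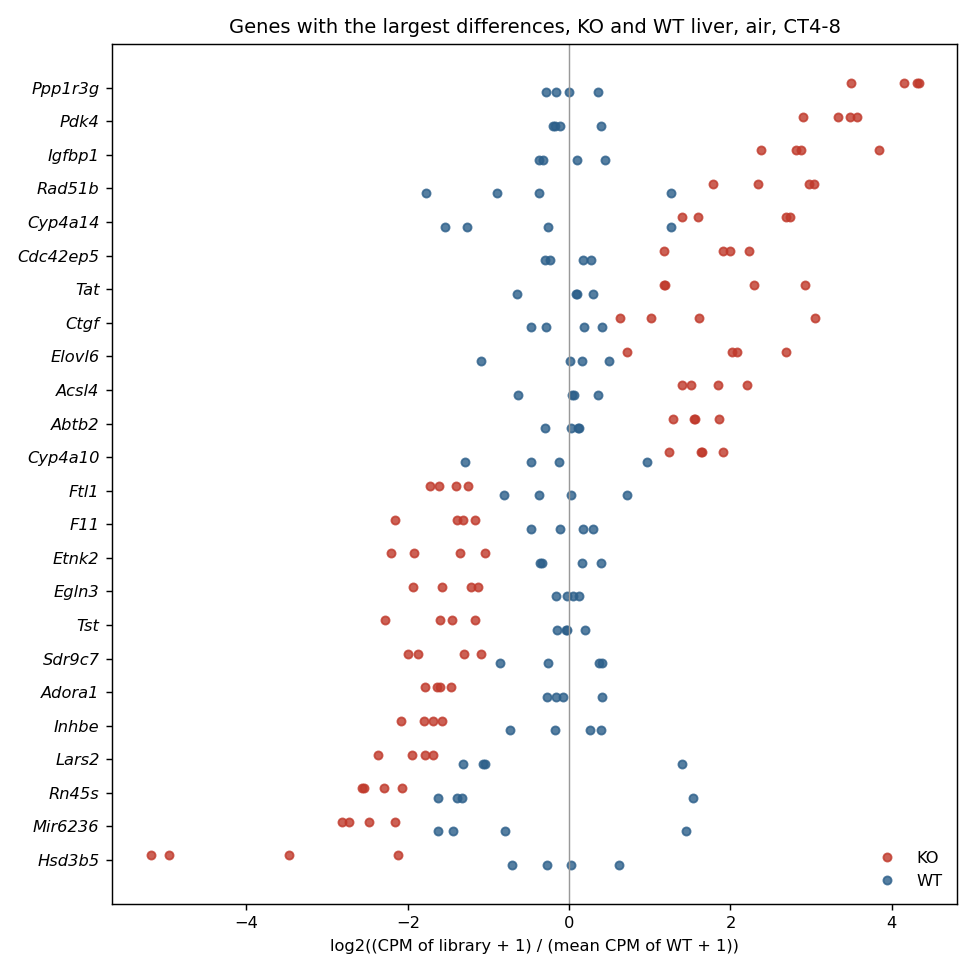
Each row is 1 of the 24 genes with the largest called differences among those at 10 CPM or more and without overlap; points are the 4 KO (red) and 4 WT (blue) libraries as log2 of CPM + 1 over the WT mean + 1. Ppp1r3g, Pdk4 and Igfbp1 stand farthest to the right in KO, Hsd3b5 farthest to the left, and WT replicate a is the lone point to the right in the rows of Rn45s, Mir6236 and Lars2.

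Among genes chosen in the same way, Hsd3b5 had the largest fall in KO livers. Hsd3b5, a steroid reductase typical of male liver that has close copies (chr3:98618634-98630252, minus strand), stood at 4.38, 14.1, 3.59 and 37.4 CPM in KO livers, against 138, 257, 102 and 169.6 CPM in WT livers (-3.53 ± 0.84, adjusted p = 0.015). All KO livers were lower, but the call was lost without KO replicate a (adjusted p = 0.064) or KO replicate c (0.063). Etnk2, an ethanolamine kinase, stood at 320.0, 258, 174 and 141 CPM in KO livers, against 864, 734, 521 and 514 CPM in WT livers (-1.56 ± 0.22, adjusted p = 2.4e-05). F11, coagulation factor XI, stood at 39.4, 21.7, 37.5 and 43.8 CPM in KO livers, against 113, 123, 71.9 and 91.9 CPM in WT livers (-1.49 ± 0.21, adjusted p = 2.5e-05). Neither gene overlapped between the groups. Inhbe, the activin subunit beta E secreted by hepatocytes (-1.83 ± 0.38), Adora1, an adenosine receptor (-1.76 ± 0.32), Tst, the sulfurtransferase rhodanese (-1.60 ± 0.28), and Sdr9c7, a short-chain dehydrogenase (-1.61 ± 0.34), fell too. Egln3, a prolyl hydroxylase of the hypoxia-inducible factors, stood at 6.56, 4.88, 3.59 and 6.98 CPM in KO livers, against 14.7, 16.1, 18.1 and 17.1 CPM in WT livers (-1.60 ± 0.29, adjusted p = 0.0007). Ftl1, the ferritin light chain, was -1.49 ± 0.26 and stayed called without WT replicate a (-1.13, adjusted p = 0.0067). Rn45s (-2.36 ± 0.48), Mir6236 (-2.67 ± 0.56) and Lars2 (-1.96 ± 0.47) were highest in WT replicate a, and without it their differences were -0.92 (adjusted p = 0.0053), -1.46 (0.00777) and -0.85 (0.060).

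Of 15 tested genes of the 5 clock lists, 1 was called, Dbp, which was lower in KO livers; of all genes tested 4.51% were called, so 1 of 15 is near the background. Among the activators, Arntl stood at 9.30, 4.88, 6.16 and 5.07 CPM in KO livers, against 4.71, 5.10, 1.36 and 5.27 CPM in WT livers (0.61 ± 0.37, adjusted p = 0.37), with overlapping groups; Clock is listed in the WT table alone, and the expression of Npas2 was not analysed here. The period and cryptochrome repressors overlapped between the groups. Per3 averaged 7.88 ± 2.55 CPM in KO and 5.37 ± 1.42 CPM in WT livers (SD, n = 4 each; 0.52 ± 0.40, adjusted p = 0.5), Cry1 9.30 ± 3.14 CPM in KO and 8.12 ± 4.97 CPM in WT livers (0.25 ± 0.35, adjusted p = 0.75) and Cry2 27.8 ± 1.65 CPM in KO and 25.4 ± 3.15 CPM in WT livers (0.13 ± 0.21, adjusted p = 0.8). For Per1 and Per2 the differences were 0.17 ± 0.26 and 0.01 ± 0.38. In these lists of activators and of period and cryptochrome genes edgeR called 0 of 1 and 0 of 5, with 0 at an unadjusted p under 0.05, and DESeq2 called 0.

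Of the 2 receptor genes of the second loop described here, edgeR called 0, with 2 at an unadjusted p under 0.05, and DESeq2 called 0. Nr1d1 stood at 41.6, 67.8, 67.8 and 90.1 CPM in KO livers, against 93.6, 89.6, 124 and 110.0 CPM in WT livers (-0.65 ± 0.28, adjusted p = 0.18). KO replicate d lay within the WT range and the other 3 KO livers below it. Nr1d2 averaged 11.8 ± 3.84 CPM in KO and 7.39 ± 1.77 CPM in WT livers (0.68 ± 0.33, adjusted p = 0.24). Rora was under the filter and the expression of Rorb was not analysed here. Dbp, the D-box activator, stood at 78.8, 106, 104 and 119 CPM in KO livers, against 263, 219, 239.7 and 197 CPM in WT livers (-1.17 ± 0.31, adjusted p = 0.028). The groups did not overlap, and the call was lost without KO replicate a (adjusted p = 0.097), b (0.059) or c (0.072), or without WT replicate a (0.073). The D-box repressor Nfil3 stood at 27.9, 27.6, 28.7 and 15.9 CPM in KO livers, against 17.1, 15.3, 16.3 and 11.9 CPM in WT livers (0.75 ± 0.23, adjusted p = 0.053), with KO replicate d within the WT range. It was called higher without KO replicate d, and of these 4 D-box factors DESeq2 called 2, Dbp and Nfil3. Tef (-0.34 ± 0.21, adjusted p = 0.38) and Hlf (-0.18 ± 0.25, adjusted p = 0.75) overlapped.

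Ciart, an E-box repressor, stood at 41.6, 24.4, 21.6 and 23.5 CPM in KO livers, against 7.06, 17.8, 15.8 and 10.2 CPM in WT livers without overlap, and missed the threshold (1.11 ± 0.39, adjusted p = 0.1). Of the 3 further repressors tested edgeR called 0, with 1 at an unadjusted p under 0.05, and DESeq2 called 1, Ciart. Bhlhe40 and Cipc differed by -0.11 ± 0.26 and -0.00 ± 0.20, and the expression of Bhlhe41 was not analysed here. Among 10 tested kinases, ligases and partners of clock proteins, 1 was called (10%, against 4.51% of all genes tested). It was Csnk1d, a kinase that acts on PER proteins (0.55 ± 0.17, adjusted p = 0.048), and the call was lost in 6 of the 8 fits without 1 library.

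The promoters of Ciart and Per1 are shown because Ciart had the most canonical E-boxes of the clock genes and Per1 is a targeted gene, here at 1 of its 2 start sites in the table. Both are RefSeq sequences of GRCm38.p6 from 250 bases before to 50 bases after a start site, with the E-box CACGTG, which reads alike on both strands, in capitals.
Ciart, chr3:95882179-95882478, minus strand: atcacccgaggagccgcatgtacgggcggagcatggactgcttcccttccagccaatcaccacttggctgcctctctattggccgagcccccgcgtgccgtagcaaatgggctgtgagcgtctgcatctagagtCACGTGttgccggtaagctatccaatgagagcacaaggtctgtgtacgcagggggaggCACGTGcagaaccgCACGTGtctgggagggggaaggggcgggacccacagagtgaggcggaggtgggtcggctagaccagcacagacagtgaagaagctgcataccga
Per1, chr11:69098699-69098998, plus strand: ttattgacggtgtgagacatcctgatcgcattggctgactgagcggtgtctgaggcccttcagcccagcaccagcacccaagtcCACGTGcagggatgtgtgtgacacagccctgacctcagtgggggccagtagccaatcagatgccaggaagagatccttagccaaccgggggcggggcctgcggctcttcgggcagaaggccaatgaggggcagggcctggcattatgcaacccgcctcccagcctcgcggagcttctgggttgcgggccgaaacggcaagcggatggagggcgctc
The E-boxes of Ciart began 116, 58 and 44 bases before the start site, and that of Per1 166 bases before it. At least 1 E-box was present in 7 of 25 promoters of clock genes (28.0%), in 10.5% of 8947 promoters of genes tested and in 7.15% of 32851 promoters in all. It was present in 10.8% of 203 promoters of genes called higher and in 8.49% of 212 of genes called lower. A D-box (TTATGTAA, its reverse complement TTACATAA, or the palindrome TTACGTAA) was present in 7 of 203 promoters of genes called higher (3.45%). It was present in 1 of 212 promoters of genes called lower (0.472%) and in 0.838% of those tested. A gene with several start sites counts more than 1 time, and the 203 promoters belong to 155 genes. The windows of Dbp and Nr1d1 hold no canonical E-box, which says nothing about sites elsewhere.

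**Figure D2:**
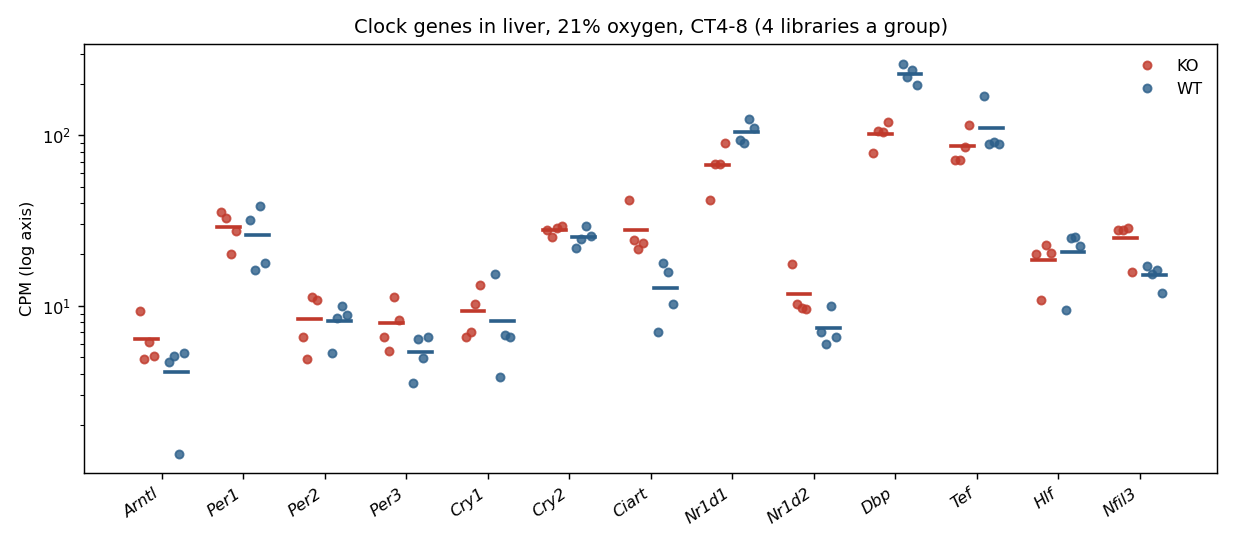
CPM of 13 clock genes on a log axis, with a point for each library and a line at the mean of each group (KO red, on the left; WT blue). Ciart is above and Dbp below the WT range in all 4 KO livers, and the ranges of the other genes overlap.

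The difference between KO and WT livers at CT4-8 was then set against that at CT16-20 in air. A constant shift between the tables cancels in this contrast. It called 98 of 9011 genes (1.09%), 65 with a higher (0.721%) and 33 with a lower value at CT4-8 (0.366%). Of the 98, 60 were also called at CT4-8, where 4.51% of all genes tested were. The contrast holds the CT4-8 difference itself, so this overlap is partly built in and is no separate result. Without 1 library the contrast called 59 to 112 genes, with 63 without KO replicate a and 59 without KO replicate c of CT4-8, and 61 and 63 without KO replicates b and c of CT16-20. At CT16-20 itself 180 genes were called (2.00%), 87 higher (0.965%) and 93 lower (1.03%) in KO. Of the genes called at both times, 28 had the same direction and 6 the opposite one.

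Clock genes were among those with the smallest p in this contrast. Dbp had the smallest p, with a difference of -1.17 ± 0.31 at CT4-8 and 3.00 at CT16-20 (contrast -4.17 ± 0.49, adjusted p = 2.5e-05). Nr1d1 averaged 66.8 ± 19.8 CPM in KO and 104 ± 16 CPM in WT livers at CT4-8 and 38.8 ± 14.6 CPM in KO and 5.35 ± 0.896 CPM in WT livers at CT16-20 (SD, n = 4 each; contrast -3.49 ± 0.47, adjusted p = 9.9e-05). Nfil3 ran the other way, averaging 25 ± 6.14 CPM in KO and 15.1 ± 2.30 CPM in WT livers at CT4-8 and 22.2 ± 2.66 CPM in KO and 46 ± 6.19 CPM in WT livers at CT16-20 (contrast 1.80 ± 0.32, adjusted p = 0.0012). Arntl (2.20 ± 0.47, adjusted p = 0.012) and Cry1 (1.97 ± 0.45, adjusted p = 0.022), like Nfil3 targets of REV-ERB receptors, also had a higher difference at CT4-8. The Arntl contrast lost its call without KO replicate a of CT4-8 (adjusted p = 0.052), and that of Cry1 in 5 of 16 fits without 1 library. The difference of CT16-20 from CT4-8 was -0.34 in KO and -4.51 in WT livers for Dbp, -0.79 in KO and -4.29 in WT livers for Nr1d1, -0.18 in KO and 1.62 in WT livers for Nfil3, and 0.35 in KO and 2.55 in WT livers for Arntl.

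Outside the clock, Agxt, the enzyme that detoxifies glyoxylate, averaged 218 ± 34.9 CPM in KO and 445 ± 113 CPM in WT livers at CT4-8 and 307 ± 31.1 CPM in KO and 178 ± 21.1 CPM in WT livers at CT16-20 (contrast -1.82 ± 0.28, adjusted p = 0.00037), and was called in opposite directions at the 2 times. Gpr146, a receptor linked to blood cholesterol (-1.45 ± 0.23, adjusted p = 0.00054), and the transducin gene Gnat1 (-2.68 ± 0.44, adjusted p = 0.00066) also had a lower value at CT4-8. Abtb2 (2.82 ± 0.37, adjusted p = 2.5e-05), Slc45a3, a sugar transporter (1.69 ± 0.28, adjusted p = 0.00066), and 1700017B05Rik (2.68 ± 0.43, adjusted p = 0.00054) had a higher one. Of the genes with the largest rises at CT4-8, Ppp1r3g (3.69 ± 0.68, adjusted p = 0.0057), Pdk4 (3.56 ± 0.68, adjusted p = 0.0075) and Elovl6 (2.99 ± 0.65, adjusted p = 0.022) differed between the times. Ppp1r3g averaged 38.7 ± 14 CPM in KO and 24.8 ± 9.04 CPM in WT livers at CT16-20, and Pdk4 30.7 ± 8.61 CPM in KO and 29.6 ± 10.3 CPM in WT livers. Tat (1.78), Igfbp1 (2.09) and Acsl4 (1.59) passed as well, as did Egln3 (-1.75) and F11 (-1.30) among the falls. Within one genotype, edgeR called 4 genes by time in KO livers (0.0444%; DESeq2 called 35) and 387 in WT livers (4.29%), 196 higher (2.18%) and 191 lower (2.12%) at CT16-20. The KO genes, named after their values were seen, were Gstm1, Cyp7a1, Csad and Scara5, and their number ran from 1 to 7 without 1 library, with 1 left without KO replicate a, c or d of CT4-8 or c or d of CT16-20. The WT count was 204, 243 and 219 without WT replicates a, b and d of CT16-20 and 238 without WT replicate a of CT4-8. The difference between these counts was not tested.

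**Figure D3:**
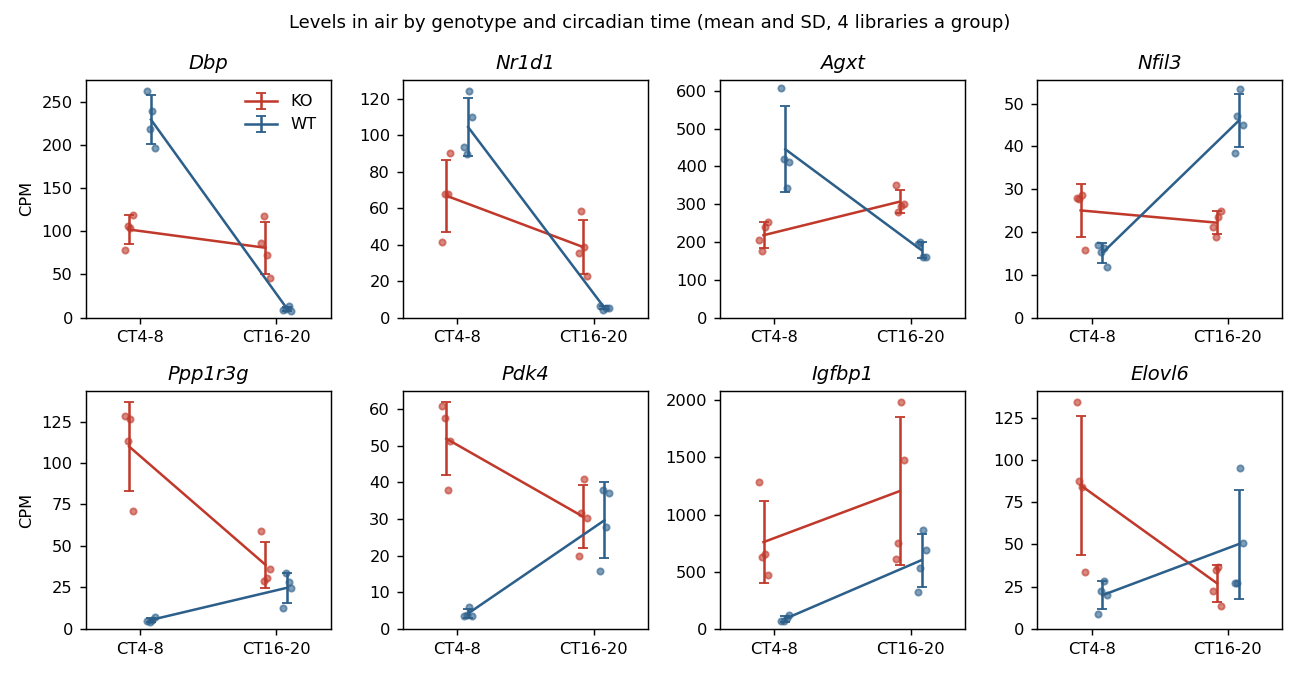
CPM of 8 genes in air at CT4-8 and CT16-20 (points are libraries; lines join group means with SD; KO red, WT blue). Dbp, Nr1d1 and Agxt have the higher WT level at CT4-8 and the lower one at CT16-20, Nfil3 the reverse, and Ppp1r3g, Pdk4 and Igfbp1 are lowest in WT livers at CT4-8.

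Genes of fasting and of glucocorticoid action were higher in KO livers where they differed. Of 14 tested genes of gluconeogenesis and fasting, 4 were called higher (28.6%, against 4.51% of all genes tested) and 0 lower: Tat, Igfbp1, Pdk4 and G6pc, the phosphatase that releases glucose, at 622 ± 123 CPM in KO and 292 ± 114 CPM in WT livers (SD, n = 4 each; 1.09 ± 0.29, adjusted p = 0.027). Without WT replicate c or d 1 was lower. The list's median difference was 0.29, against -0.0029 over all genes tested. G6pc lost its call without KO replicate a (adjusted p = 0.088) or c (0.073), or WT replicate a (0.081). Of 17 glucocorticoid-induced genes, 6 were called higher (35.3%) and 0 lower, with a median of 0.59. Beside Tat these were Tsc22d3, the glucocorticoid-induced leucine zipper (0.84 ± 0.20, adjusted p = 0.0092), the kinase Sgk1 (0.79 ± 0.20, adjusted p = 0.019), Errfi1, an inhibitor of the EGF receptor (0.55 ± 0.15, adjusted p = 0.032), Angptl4, an inhibitor of lipoprotein lipase (0.82 ± 0.23, adjusted p = 0.032), and the metallothionein Mt2 (2.21 ± 0.60, adjusted p = 0.035). The count was 2 without KO replicate a and 3 without KO replicate c, WT replicate a or WT replicate d. Tat stood at 7950.0, 2359, 5130.2 and 2391 CPM in KO livers, against 667, 1279, 1122 and 1113 CPM in WT livers, and its call held in every fit without 1 library (adjusted p at most 0.00043).

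Glycogen genes differed in both directions: of 12 tested, 2 were called higher and 1 lower (25% called, against 4.51% of all genes tested), with a median of -0.15. Ppp1r3b, a further glycogen-targeting phosphatase subunit, averaged 26.5 ± 6.10 CPM in KO and 12.4 ± 1.25 CPM in WT livers (1.12 ± 0.24, adjusted p = 0.0037), and with Ppp1r3g it stayed called without any 1 library. Phkg2, the liver phosphorylase kinase subunit, was lower (-0.69 ± 0.21, adjusted p = 0.047) and lost its call in 5 of 8 such fits. Of 14 glycolysis genes 1 was called (7.14%, against 4.51% of all genes tested), Pfkfb1, which makes and breaks down fructose 2,6-bisphosphate (0.83 ± 0.19, adjusted p = 0.0066), and the count was 2 without KO replicate c or d. Of 26 genes of amino acid breakdown and the urea cycle, 2 were called higher (7.69%), Tat and the methionine adenosyltransferase gene Mat1a (0.86 ± 0.17, adjusted p = 0.0023), and 1 was lower without KO replicate a.

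Lipid genes were called mostly higher. Of 27 genes of fatty acid oxidation and PPARalpha action, 5 were higher (18.5%) and 0 lower, with a median of 0.15: Pdk4, the thioesterase gene Acot4 (1.30 ± 0.25, adjusted p = 0.0019), Angptl4, Cyp4a10 and Cyp4a14. The count was 2 without KO replicate c, WT replicate a or WT replicate d, and 3 without KO replicate a, b or d or WT replicate b; 1 was lower without WT replicate c or d. Of 21 genes of fatty acid and triglyceride synthesis, 3 were higher and 1 lower (19.0% called), with a median of 0.42. Elovl6, Elovl5, an elongase of polyunsaturated fatty acids (1.11 ± 0.32, adjusted p = 0.045), and Acly, which makes cytosolic acetyl-CoA (0.87 ± 0.26, adjusted p = 0.0496), were higher. Srebf1, the transcription factor that drives this pathway, was lower, with 95.2, 90.0, 112 and 91.3 CPM in KO livers, against 139, 219, 151 and 198 CPM in WT livers (-0.86 ± 0.21, adjusted p = 0.015), and lost its call without WT replicate b (adjusted p = 0.054). The higher count was 1 without KO replicate a, b or c or WT replicate a or b. In 20 cholesterol synthesis genes, 3 were higher (15%) and 0 lower, with a median of 0.37. These were Fdps, the farnesyl diphosphate synthase (1.02 ± 0.21, adjusted p = 0.0031), and the sterol enzymes Msmo1 (0.72 ± 0.19, adjusted p = 0.019) and Tm7sf2 (0.55 ± 0.15, adjusted p = 0.022). The count was 2 to 3 without 1 library, and Fdps stayed called in every fit without 1 library. Of 17 bile acid genes 1 was called (5.88%, near the 4.51% of all genes tested). It was Hsd3b7, an early enzyme of bile acid synthesis, which was lower (-0.73 ± 0.14, adjusted p = 0.0015), and 2 were called higher without WT replicate c.

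Of 15 liver genes known as clock outputs, 3 were higher and 1 lower (26.7% called, against 4.51% of all genes tested). The higher ones were Coq10b (0.94 ± 0.18, adjusted p = 0.0019), Tsc22d3 and the P450 reductase gene Por (0.62 ± 0.18, adjusted p = 0.041). The lower one was the cold-inducible RNA-binding protein gene Cirbp (-1.34 ± 0.34, adjusted p = 0.017). The higher count was 1 without KO replicate a, and Cirbp lost its call without KO replicate c or WT replicate a. Of 26 genes of drug metabolism, 6 were higher and 1 lower (26.9% called, against 4.51% of all genes tested), with a median of 0.35. The higher ones were the carboxylesterase gene Ces1d, at 2329, 2473, 2889 and 2746 CPM in KO livers, against 1158, 1288, 1242 and 1371 CPM in WT livers (1.04 ± 0.17, adjusted p = 0.00027), the sulfotransferase gene Sult1a1 (1.04 ± 0.23, adjusted p = 0.0066), the receptor partner Arnt (0.79 ± 0.22, adjusted p = 0.033), Cyp3a13 (1.06 ± 0.31, adjusted p = 0.038), Por and the efflux pump gene Abcb1a (1.56 ± 0.46, adjusted p = 0.047). The glutathione transferase gene Gstp1 was lower (-1.22 ± 0.29, adjusted p = 0.0096). The count of higher genes was 2 without KO replicate a or b and 3 without KO replicate c or WT replicate c, and 2 were lower without KO replicate d. Ces, Cyp3a, Sult and Gst genes have close copies, so their counts are uncertain.

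The called genes of growth hormone action (2) and of male liver (1) were lower. Of 12 growth hormone and STAT5 targets, 2 were lower (16.7%, against 2.24% of all genes tested) and 0 higher, with a median of -0.49: Igfals, the acid-labile subunit of the circulating IGF complex, at 117, 132, 133 and 154 CPM in KO livers, against 286, 291, 183 and 265 CPM in WT livers (-0.94 ± 0.17, adjusted p = 0.0011), and Igf1 (-0.56 ± 0.16, adjusted p = 0.041). Igf1 lost its call without any 1 library other than WT replicate a. In 12 male-biased liver genes the median was -0.76, with 11 of 12 below 0. Of these 1 was called lower (8.33%, against 2.24% of all genes tested), Hsd3b5. The call was lost without KO replicate a or c, and 2 were called without WT replicate a. Slco1a1, an organic anion transporter, differed by -0.70 ± 0.29 (adjusted p = 0.18) and Cyp7b1, an oxysterol hydroxylase, by -1.90 ± 0.72 (adjusted p = 0.14). All 7 major urinary protein genes tested were below 0, with a median of -1.37, and edgeR called 0 of them (3 at an unadjusted p under 0.05, and 1 by DESeq2), Mup20 coming nearest (-1.37 ± 0.42, adjusted p = 0.054). Without WT replicate a 1 was called lower. Mup genes are near-identical copies, and their counts are uncertain. Of 3 female-biased genes tested, edgeR called 0, with 1 at an unadjusted p under 0.05, and DESeq2 called 1; 1 was called without WT replicate c. All 3 were above 0, with a median of 0.86, and of the 15 genes of this list 4 were listed in the KO table alone and 0 in the WT table alone. The Y-linked genes differed by 0.25 ± 0.35 (Kdm5d) and -0.15 ± 0.40 (Eif2s3y).

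**Figure D4:**
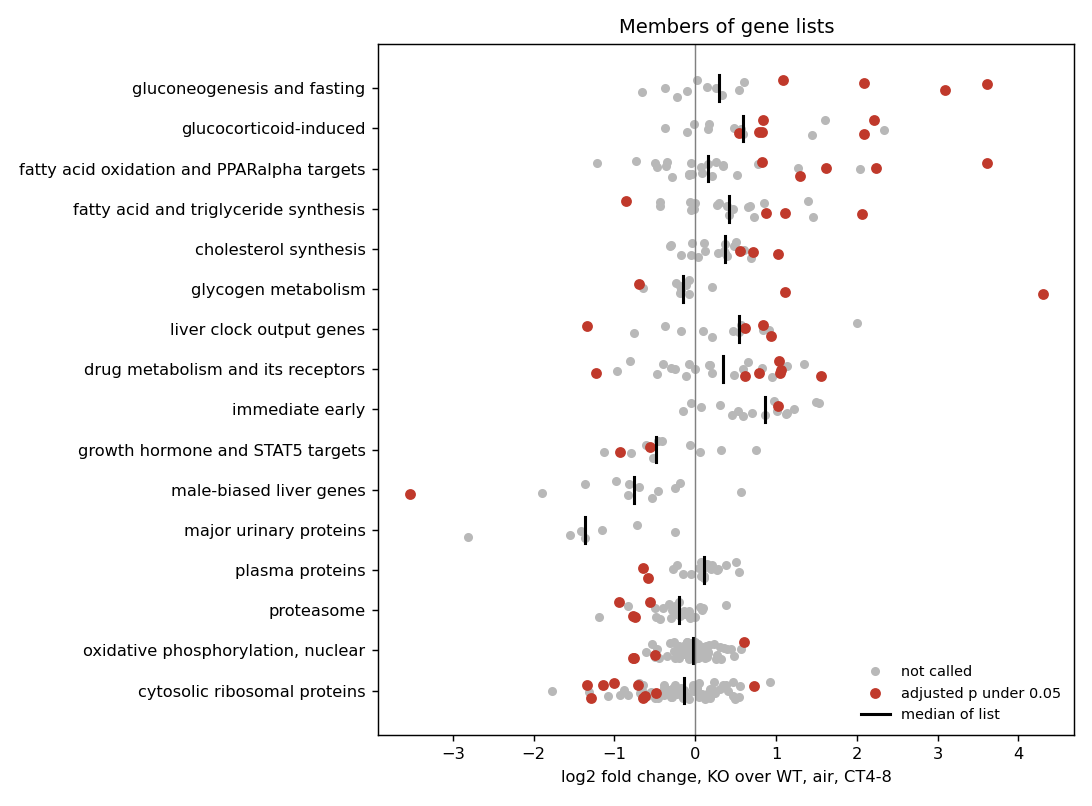
Each point is a tested gene of 1 of 16 lists, at its log2 fold change of KO over WT livers (red where the adjusted p was under 0.05, grey otherwise), with a black bar at the list's median. Called genes of the fasting, glucocorticoid, oxidation and cholesterol lists lie to the right of 0, those of the growth hormone, male-biased, plasma protein and proteasome lists to the left.

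Proteasome and ribosomal protein genes were mostly lower where they were called, and part of these calls was lost without WT replicate a. Of 31 proteasome genes, 4 were lower (12.9%) and 0 higher, with 26 of 31 below 0 and a median of -0.20: Psmb2 (-0.77 ± 0.18, adjusted p = 0.0079), Psmb5 (-0.94 ± 0.23, adjusted p = 0.015), Psmc3 (-0.56 ± 0.14, adjusted p = 0.019) and Psmc5 (-0.74 ± 0.19, adjusted p = 0.02). Without WT replicate a, or without KO replicate a, 2 were called. Of 73 cytosolic ribosomal protein genes, 8 were lower and 1 higher (12.3%), with a median of -0.14. Rpl10 (-1.29 ± 0.23, adjusted p = 0.00084), Rpl28 (-1.34 ± 0.27, adjusted p = 0.0034) and Rpl24 (-0.71 ± 0.17, adjusted p = 0.0095) were lower and Rpl38 (0.73 ± 0.19, adjusted p = 0.019) higher. Their summed level was 41710 CPM in WT replicate a and 26673 to 29844 CPM in the other 7 livers. Without WT replicate a 3 were lower, and Rpl28 stood at -0.78; without KO replicates a, b and c the lower count was 5, 4 and 2. The higher count was 0 without KO replicate c, 3 without KO replicate b and 2 without WT replicate b. Of 66 nuclear genes of oxidative phosphorylation, 3 were lower, Cox8a (-0.76 ± 0.17), Cox4i1 (-0.77 ± 0.18) and Atp5g1 (-0.50 ± 0.15), and 1 higher, Ndufb4 (0.60 ± 0.16), a share of 6.06%, near that of all genes (4.51%). Cox4i1 was -0.41 without WT replicate a (adjusted p = 0.081), and Atp5g1 and Ndufb4 lost their calls in 7 and 5 of the 8 fits without 1 library, while 2 of these genes were higher without WT replicate a. Ribosomal protein genes have many near-identical pseudogenes, which leaves their counts uncertain.

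In the next 7 lists 4.17% to 9.52% of the tested genes were called, against 4.51% of all genes tested. Of 22 plasma protein genes, 2 were lower: prothrombin, F2, at 1271 ± 159 CPM in KO and 1913 ± 192 CPM in WT livers (-0.59 ± 0.14, adjusted p = 0.01), and Apoa1 (-0.65 ± 0.19, adjusted p = 0.041), which lost its call without KO replicate b or c or WT replicate a or d. Of 24 acute phase genes 1 was higher, Mt2, whose call was lost in 5 of 8 fits without 1 library; 2 were called without KO replicate d, and at CT16-20 10 were higher (0.965% of all genes tested were). The neutrophil markers S100a8 and S100a9 were also called higher at CT16-20, with 4.07 and 4.42, and their part in this count was not tested. Of 17 immediate early genes, 15 were above 0 with a median of 0.86, and 1 was called, Jund, an AP-1 subunit (1.02 ± 0.21, adjusted p = 0.0027); 2 were called without WT replicate b or c. The stress hormone gene Gdf15, of 13 genes of the integrated stress response, was higher (1.13 ± 0.32, adjusted p = 0.038) and lost its call without any 1 library other than WT replicate c, when 1 was also lower. Of 21 genes of the list for hypoxia-inducible factors, Egln3 was lower. Arnt, which encodes a subunit of these factors and is not a target, was higher, with a call lost without KO replicate a or b or WT replicate a or c. Of 13 hepatocyte identity factors Cebpb was higher (0.72 ± 0.15, adjusted p = 0.0037), with 2 higher without WT replicate c and 1 lower without KO replicate d or WT replicate d. Of 18 cell cycle genes Pcna, the replication clamp, was higher (0.73 ± 0.18, adjusted p = 0.013); the call was lost without KO replicate a or c, and 3 were called without WT replicate c. In heat shock (17 tested), the unfolded protein response (19), interferon (22), p53 (14) and nuclear noncoding RNA (4) genes, edgeR called 0. At an unadjusted p under 0.05 there were 3, 6, 4, 3 and 1 such genes, and DESeq2 called 0, except 1 p53 gene. Without 1 library 1 gene was called in heat shock (WT replicate a), the unfolded protein response (WT replicate c), interferon (WT replicate b) and p53 genes (WT replicate d). Nnt, which some C57BL/6 substrains lack, averaged 79.1 ± 13.6 CPM in KO and 69.7 ± 12.1 CPM in WT livers and did not separate the groups (0.18 ± 0.16, adjusted p = 0.59).

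A list of genes that differ by time of day was taken from the light-dark WT livers, which are other mice in another table. There 559 of 9451 genes (5.91%) differed between ZT16-20 and ZT4-8, 306 of them higher at ZT16-20 (3.24%) and 253 lower (2.68%). Of those tested here, 300 were higher in the dark phase and 247 in the light phase. Of the dark-phase genes, 36 were higher (12.0%, against 2.26% of all genes tested) and 3 lower in KO livers at CT4-8, with a median difference of 0.15 and 192 of 300 above 0. Of the light-phase genes, 22 were lower (8.91%, against 2.24%) and 5 higher, with a median of -0.25 and 178 of 247 below 0. The higher count among dark-phase genes was 27 to 37 without 1 library and 17 in a fit of the 8 libraries alone. The lower count among light-phase genes was 11 without KO replicate a, 14 without KO replicate c and 8 in a fit of the 8 libraries alone. It was 12 to 14 where the list was made without light-dark replicate a or d of ZT4-8, or a, b or d of ZT16-20. By the contrast between the times, 30 of 300 dark-phase genes had a higher difference at CT4-8 and 1 a lower one. Of 247 light-phase genes 1 had a higher and 11 a lower one. Over all genes tested 0.721% had a higher and 0.366% a lower one. The contrast holds the same CT4-8 libraries, so these counts are not separate from those before. At CT16-20 the medians had the opposite signs, -0.24 for dark-phase and 0.23 for light-phase genes. Of the genes called at CT4-8, Pdk4, Igfbp1, Tat and Abtb2 were dark-phase genes that were higher in KO livers, and Dbp, Inhbe, Adora1 and Gpr146 light-phase genes that were lower. The other way round, the dark-phase gene F11 was lower, and the light-phase genes Elovl6, Elovl5, Coq10b and Msmo1 were higher.

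**Figure D5:**
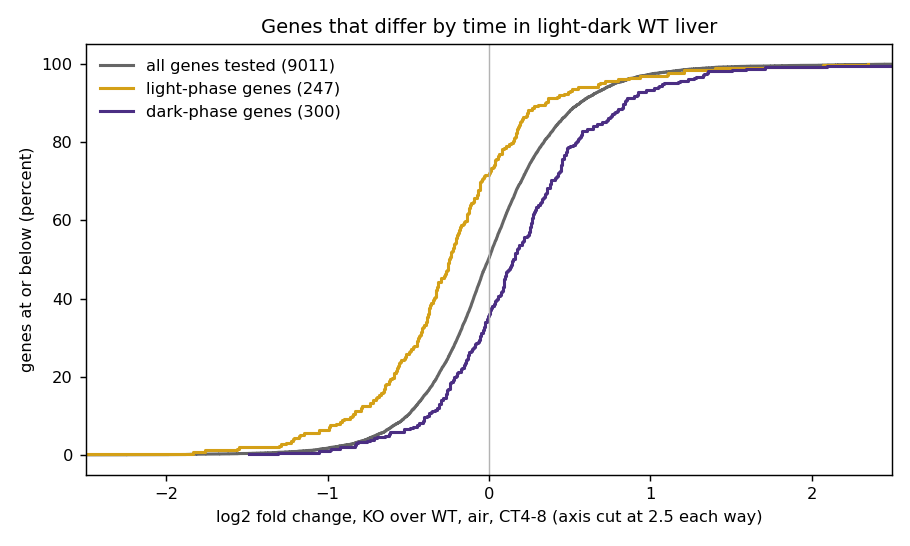
Share of genes (percent) at or below each log2 fold change of KO over WT livers in air at CT4-8, for 300 dark-phase genes, 247 light-phase genes and all 9011 genes tested. The curve of the dark-phase genes lies to the right of that of all genes and the curve of the light-phase genes to its left.

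Genes beside the targeted genes were counted by position on mm10 (GENCODE vM21). Within 10 Mb of Per2 (chr1:91415982-91459324), 8 of 57 genes tested were called (14%), against 387 of 8688 (4.45%) of all genes with 1 position and 11 of 384 (2.86%) farther than 20 Mb away on chromosome 1. Within 5 Mb there were 6 of 42 (14.3%), and within 20 Mb the same number of called genes, 8, among 102 (7.84%). The nearest was Hes6, a basic helix-loop-helix factor that lies 0.00194 Mb from Per2 (-0.91 ± 0.25, adjusted p = 0.03; -1.23 at CT16-20, adjusted p = 0.0059). D2hgdh, a hydroxyglutarate dehydrogenase, was lower at both times (-1.56 ± 0.37, adjusted p = 0.011; -2.51 and 0.00041 at CT16-20). The others, named after their values were seen, were Agxt, Dis3l2 and 2810459M11Rik, which were lower, and Ugt1a6b, which shares exons with its neighbours, Inpp5d and Pam, which were higher. The count was 3 without KO replicate a, 4 without KO replicate b or c and 5 without WT replicate b. Within 10 Mb of Per1 (chr11:69095217-69109960), 5 of 199 were called (2.51%): Rnf167, Rpain, Spns2, Glod4 and Srebf1. Rnf167, a ubiquitin ligase gene 1.54 Mb from Per1, was higher at both times, with 53.6, 54.2, 49.8 and 57.1 CPM in KO livers, against 23.5, 23.8, 21.7 and 21.4 CPM in WT livers at CT4-8 (1.25 ± 0.15, adjusted p = 1.8e-06; 1.40 at CT16-20, adjusted p = 3.3e-07). The count was 3 without KO replicate a or c or WT replicate b and 8 without WT replicate c. The strains' alleles around either gene were not analysed here.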

How the data were processed

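The tools bcl2fastq, cutadapt, STAR and HTSeq and the build mm10 are named, without role or order, per the submitters' processing notes; no source used here gives versions, annotation or strand setting, so overlapping and antisense genes cannot be told apart. The authors deposited whole-number counts per gene, unnormalized, in a table per group set, with 0 per-sample columns unused. Genes in both tables went into edgeR 4.0.16 under R 4.3.3 (filterByExpr at a minimum count of 10, TMM scaling, quasi-likelihood test, Benjamini-Hochberg adjustment over all 9011 genes) on the 31 constant-dark liver libraries, with a term per group. These libraries include those at 6% oxygen, and the light-dark fit held 16 libraries, also at both oxygen levels. SE is the log2 fold change over the square root of F. DESeq2 1.42.0 was an alternative. Replicates are separate mice. The steps were tested on simulated data.

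Genes were named by a rule: the 12 largest called changes each way at 10 CPM or more without overlap and with no placeholder symbol; the 8 smallest p of the contrast between times; up to 4 of smallest p per list; all clock genes. Further called members of lists, and genes near Per1 and Per2, were named after their values were seen. The comparison, the lists and the rule were chosen with earlier results of these data known. Some genes are not reported here and were left out of the lists.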

Additional observations from a re-analysis of the deposited data

Results flagged for a closer look

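In 10 of 120 groups of 4 libraries that were checked, 1 library stood far from the other 3 of its group. The threshold is set for about 1 in 20 of independent groups. The groups checked share the same libraries, and many of their genes were chosen for called differences, so 1 in 20 is not their chance rate. WT replicate a accounts for several. It was the high library for Rn45s (3938 CPM in WT replicate a and 440.0 to 542 CPM in the other 3), Mir6236 (91.2 CPM in WT replicate a and 9.95 to 18.4 CPM in the other 3), Lars2 (124 CPM in WT replicate a and 18.1 to 22.1 CPM in the other 3), Tef (169 CPM in WT replicate a and 88.6 to 91.3 CPM in the other 3) and the summed ribosomal protein genes, without TMM scaling (41710 CPM, against 28501 to 29844 CPM in the other 3). Pdk4 had 5.88 CPM in WT replicate c and 3.53 to 3.82 CPM in the other 3, and Arntl had 1.36 CPM in WT replicate c and 4.71 to 5.27 CPM in the other 3. Nr1d2 had 17.5 CPM in KO replicate a and 9.51 to 10.3 CPM in the other 3, Nfil3 15.9 CPM in KO replicate d and 27.6 to 28.7 CPM in the other 3 and Ciart 41.6 CPM in KO replicate a and 21.6 to 24.4 CPM in the other 3. Results without the flagged library are given above for Rn45s, Mir6236, Lars2, the ribosomal protein genes and Nfil3. Pdk4 stayed called by edgeR without any 1 library (adjusted p at most 0.0015). For Tef, Nr1d2, Ciart and the difference of Arntl at CT4-8, which were not called, values without the flagged library are not given.

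For 19 named genes the difference between KO and WT livers was not the same at CT4-8 and CT16-20 by edgeR's test of that contrast. It was higher at CT4-8, on the log2 scale, for Ppp1r3g (3.69), Pdk4 (3.56), Elovl6 (2.99), Abtb2 (2.82), 1700017B05Rik (2.68), Arntl (2.20), Igfbp1 (2.09), Cry1 (1.97), Nfil3 (1.80), Tat (1.78), Slc45a3 (1.69) and Acsl4 (1.59). It was lower for Dbp (-4.17), Nr1d1 (-3.49), Gnat1 (-2.68), Agxt (-1.82), Egln3 (-1.75), Gpr146 (-1.45) and F11 (-1.30).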

How the results depend on the processing

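The 406 genes called between KO and WT livers at CT4-8 were 411 with RLE size factors, 376 without the filter on low counts, 500 with DESeq2, 408 with genes of either table, 278 with counts thinned to the smallest library, 96 with the 8 libraries alone and 228 to 473 without 1 library. Of the 406, DESeq2 called 368, thinned counts 252 and the 8 libraries alone 86. Of 75 called named genes, 30 kept their call in the 8 libraries alone and 51 to 68 without 1 library.

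Counts in the libraries compared alone were 63 for the contrast between times, 123 for time within WT, 9 for time within KO, 17 dark-phase genes, 8 light-phase genes, 21 members of any list (63 in the full fit), and within 10 Mb 2 near Per1 and 2 near Per2. Thinned counts gave 42 for the contrast between times, 251 for time within WT and 5 near Per2. DESeq2 gave 176 for the contrast, 35 for time within KO and 95 list members, and no filter gave 1 for time within KO. Near Per1 3 genes were called within 5 Mb and 8 within 20 Mb. Without 1 library the ranges were 59 to 112 for the contrast between times, 204 to 385 for time within WT, 1 to 7 for time within KO, 346 to 486 for time in light-dark liver, 27 to 37 dark-phase genes, 11 to 23 light-phase genes (13, 14, 14, 14 and 12 where the list was made without light-dark replicates a, b and d of ZT16-20 and a and d of ZT4-8), 34 to 70 list members, 3 to 8 near Per1 and 3 to 9 near Per2. The alternatives for time within genotype, CT16-20, light-dark time and the neighbours were chosen after seeing the data.

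Equal letters did not pair the libraries: the deviations of same-lettered KO and WT libraries correlated at -0.05, -0.05, 0.10 and -0.01. With the replicate block 366 genes were called, 82 in the contrast, 327 for time within WT and 1 for time within KO.

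Signs turned for 11 values near 0 that were not called; the cause was not tested. Cipc was 0.00235 with genes of either table, 0.00263 with no filter and 0.00815 in the 8 libraries, and Per1 was -0.0301 with thinned counts. Without 1 library, Cipc ran from -0.14 to 0.14, Eif2s3y from -0.31 to 0.0036, Gnat1 from -0.23 to 0.0030, Hlf from -0.38 to 0.0135, Per1 from -0.00472 to 0.43 and Per2 from -0.19 to 0.20. In the contrast between times, Cry2 ran from -0.18 to 0.20 and Kdm5d from -0.012 to 0.47. Of KO minus WT, the share of the 10 highest genes ran from -0.295 to 0.964 percentage points, the endothelial marker sum from -0.944 to 47.9 CPM and the cholangiocyte sum from -0.861 to 31.5 CPM.

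The depth of these libraries leaves genes of a few CPM, such as Per2 and Arntl, with few counts each, so small differences in them were not detectable. With 4 mice a group and genotype tied to table, the adjusted p-values measure the spread pooled over the 31 constant-dark liver libraries and not a shift between tables.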

Other observations

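Genes outside the lists and the rule for named genes also differed. Tmprss4, a membrane serine protease, stood at 12, 14.6, 13.3 and 10.1 CPM in KO livers, against 1.18, 0, 0 and 0.988 CPM in WT livers (4.41 ± 0.59, adjusted p = 1.5e-05), and was left out above because its mean was under 10 CPM. It was named after its values were seen.

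Some genes were high in some libraries of 1 group and close to 0 in the rest. Mir692-1 stood at 2.19, 3.79, 2.57 and 3.17 CPM in KO livers, against 13.5, 723, 838 and 761 CPM in WT livers (-7.62 ± 2.55, adjusted p = 0.089). Bcl7c stood at 0, 0, 0 and 0 CPM in KO livers, against 11.8, 9.77, 0 and 7.24 CPM in WT livers, and Gm5069 at 0, 36.3, 0 and 24.1 CPM in KO livers, against 0.589, 0, 0 and 0 CPM in WT livers. None of these 3 was called.

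Of the genes listed in 1 table only, 487 stood in the KO table and 306 in the WT table, and none was tested. Ctse, the protease cathepsin E, had 31, 41, 86 and 61 counts in the KO livers at CT4-8. Cyp2b9, a cytochrome P450 typical of female liver, had 23, 41, 42 and 4 counts, and Xaf1, an interferon-induced gene that lies 3.19 Mb from Per1, had 16, 24, 26 and 19 counts. Cyp2b13 had 1, 0, 0 and 0 counts there. In the WT table, Mup8 had 0, 3, 0 and 0 counts, Psat1, an enzyme of serine synthesis, 0, 5, 2 and 4 counts, and Dmbt1 0 in each. The genes listed were those with the highest count in any library of their table.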
